A study of Mus musculus with 7 samples.

Results

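Lysosomal enzymes other than cathepsins, lysosome membrane proteins, subunits of the vacuolar proton pump (V-ATPase) and the MiT transcription factors were followed in sorted mouse lung monocytes. The group holds 33 genes chosen by symbol out of the 26130 genes of the deposited count table, and all 33 had enough counts to be tested. They comprise 11 soluble enzymes and cofactors, 5 membrane proteins, 7 genes of the V0 sector and its accessory protein, 6 genes of the V1 sector and 4 MiT factors.

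All mice carried Fth1-mScarlet, a fluorescent reporter of the ferritin heavy chain gene, and Lyz2GFP, a reporter that marks myeloid cells. The sort kept GFP-positive lung cells that stained for CD11b and Ly6C but not for Ly6G, and divided them by the strength of the Fth1 signal. Untreated Fth1-low cells came from mice that received nothing (2 libraries). LPS Fth1-low (2 libraries) and LPS Fth1-high cells (3 libraries) came from mice given 20 µg of lipopolysaccharide of E. coli 0111:B4 through the trachea, in a volume of 50 µl, and killed after 3 days. The labels used here state neither age, sex and strain background nor whether a library was 1 mouse or a pool. No Fth1-high cells of untreated mice were used here, so between LPS Fth1-high and untreated libraries treatment and gate cannot be told apart.

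Lysosomes break down material brought in by phagocytosis, endocytosis and autophagy. Their hydrolases work in an acid interior that the V-ATPase maintains: its V1 sector in the cytosol splits ATP, and its V0 sector in the membrane carries the protons. TFEB, TFE3, MITF and TFEC form the MiT family, which binds E-box sequences near many lysosomal genes. Macrophages rely on this compartment to digest what they engulf.

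Libraries held 10459703 to 27997007 counts, except LPS Fth1-low replicate 1 with 637787, where 1 count is worth 1.67 CPM, the standard count scaled to library size. Ribosomal RNA took 18.7% of its counts against 0.631% to 8.33% elsewhere. That library had the lowest CPM of all 7 for 22 of the 33 members, and it lay below its partner replicate for 28. Fth1, whose reporter set the gate, was 1786 and 1672 CPM in untreated, 2970 and 4825 in LPS Fth1-low and 13231, 21000 and 20473 in LPS Fth1-high libraries. The sort markers Lyz2, Itgam and Ly6c2 were above 500 CPM in every library, and Ly6g, the excluded neutrophil marker, was at or below 0.0932 CPM in all of them. Values below are CPM per library on TMM-scaled library sizes, in order of replicate number, followed by log2 differences ± standard error. Adjusted p is from edgeR's quasi-likelihood test with Benjamini-Hochberg adjustment over 13665 genes, and a gene was called at adjusted p below 0.05. In such bulk libraries, fewer cells of a type and less RNA per cell cannot be told apart.

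Between the 2 gates after LPS, 6 of the 33 members were called higher on the Fth1-high side and 0 were called lower. These 6 were Tpp1, Gaa, Grn, Mcoln1, Atp6v1c1 and Mitf. They are 18.2% of the members, where 3.68% of all tested genes were called higher and 4.57% lower (8.25% in all). The median member difference was 0.61, against 0.04 over all tested genes, and 29 of 33 members had a difference above 0. At an unadjusted p below 0.05, edgeR gave 16 members higher and 0 lower, and neither DESeq2 nor limma-voom called a member lower. DESeq2 called 9 members higher, the same 6 with Hexa, Lamp1 and Scarb2, and limma-voom the same 6. The 3.68% belongs to the edgeR fit, and the shares of all genes called in other fits are not given here. Every LPS Fth1-high library exceeded both LPS Fth1-low libraries for 16 members, a pattern that 24.2% of all tested genes showed. The opposite pattern held for 1 member, Laptm5, and for 17.1% of genes. With LPS Fth1-low replicate 1, the shallow library, left out, the count was 4 higher and the median 0.32. Without LPS Fth1-low replicate 2 it was 11 higher with a median of 1.09, in a fit where the median of all genes was itself 0.28.

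Between LPS Fth1-low and untreated Fth1-low cells, only Mitf and Tfec were called higher and 0 members were called lower. The background there was 2.99% of genes higher and 0.629% lower (3.62% in all), and the median member difference was -0.09. At an unadjusted p below 0.05, edgeR gave 3 members higher and 1 lower, and DESeq2 called 3 higher and 0 lower, limma-voom 1 higher and 0 lower. LPS Fth1-low libraries lay wholly above untreated ones for 5 members and wholly below for 5, as they did for 16.3% and 23.2% of tested genes. Of the 2 calls, 0 held without either untreated library or without LPS Fth1-low replicate 2.

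More members were called between LPS Fth1-high and untreated cells, 11 higher and 2 lower (33.3% and 6.06%). The median member difference was 0.52, against 0.03 over all tested genes, and 27 of 33 members had a difference above 0. That median was below the 0.61 between the LPS gates. Of all tested genes, 12.4% were higher and 11.9% lower in that comparison (24.3% in all). The libraries did not overlap for 19 members that were higher and 3 that were lower, against 30.3% and 27.8% of tested genes. The 11 were Grn, Neu1, Tpp1, Gaa, Mcoln1, Atp6v0c, Atp6v1a, Atp6v1c1, Atp6v1d, Mitf and Tfec, and the 2 lower were Laptm5 and Tfeb. The count was 7 higher and 1 lower without untreated replicate 1, and 6 higher and 1 lower without untreated replicate 2. The lower count was also 1 without LPS Fth1-high replicate 3, where Laptm5 lost its call. This comparison shares its LPS Fth1-high libraries with the first and its untreated libraries with the second, so the calls of the 3 comparisons are not independent.

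**Figure D1:**
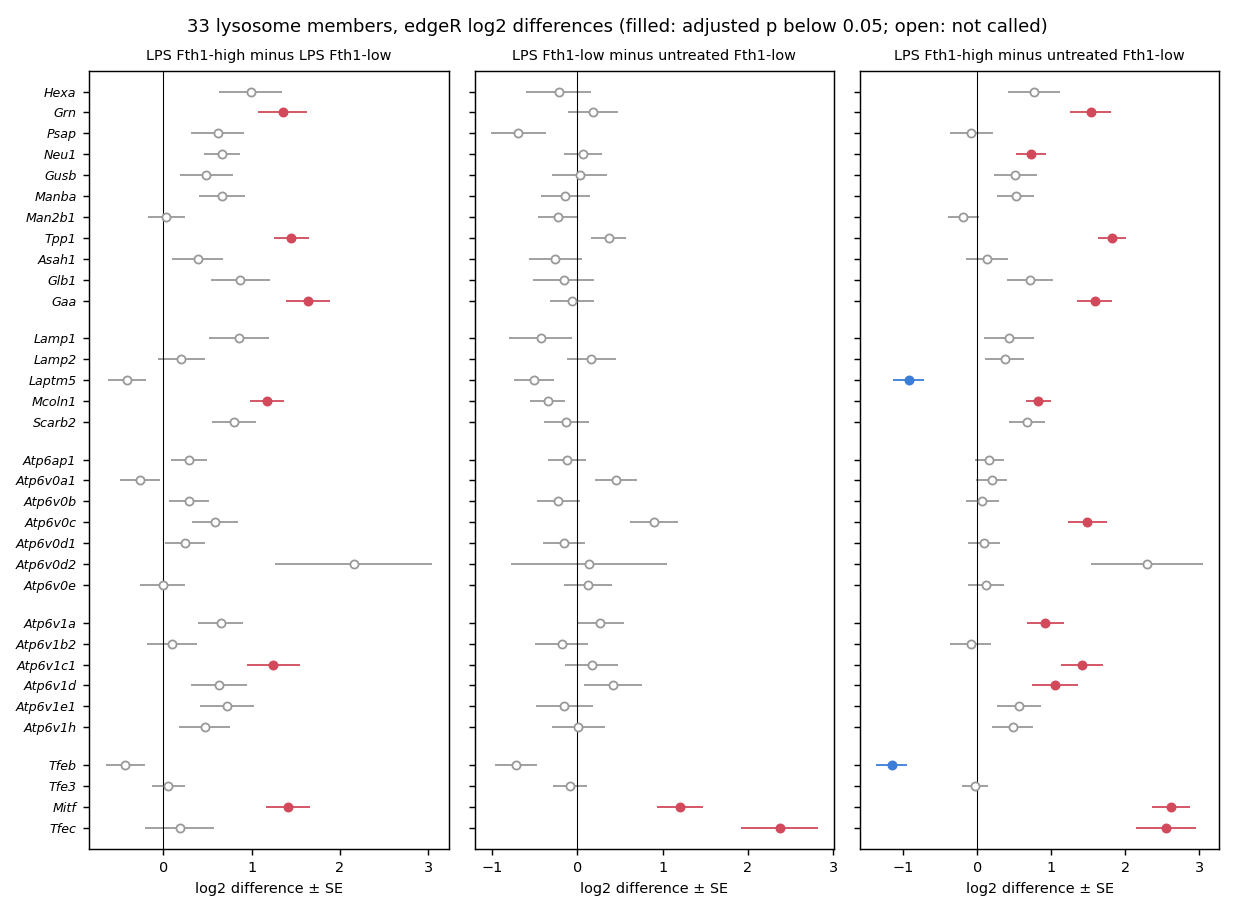
Log2 differences ± SE of the 33 members in the 3 comparisons, by role from enzymes at the top to MiT factors at the bottom (filled points passed adjusted p below 0.05, red higher and blue lower, and open points did not). In the left panel 29 members lie right of 0 and 6 are filled. In the middle panel only Mitf and Tfec are filled, and in the right panel 11 are red and 2 blue.

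Of the 4 MiT factors, Mitf and Tfec were called higher and Tfeb lower in LPS Fth1-high than in untreated cells. These are 50% and 25%, beside 12.4% and 11.9% of all tested genes. Tfe3 was not called in any comparison. Mitf (chromosome 6, 97807052 to 98021349 in mm10, plus strand), which encodes the factor best known from pigment cells and osteoclasts, was 15.2 and 19.7 CPM in untreated libraries. It was 28.5 and 46.1 CPM in LPS Fth1-low and 98.2, 100.4 and 122 CPM in LPS Fth1-high libraries. The 3 groups did not overlap and rose in that order. Fth1-high exceeded Fth1-low after LPS by 1.41 ± 0.25 (adjusted p = 0.0090) and untreated cells by 2.62 ± 0.25 (adjusted p = 8.5e-05), a 6.16-fold difference. Both calls held with each library left out in turn, whereas the difference of 1.21 ± 0.27 between the Fth1-low groups (adjusted p = 0.042) held in 1 of 7 such fits.

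Tfec (chromosome 6, 16833373 to 16898441, minus strand), a MiT factor largely restricted to macrophages and related myeloid cells, was 6.41 and 4.57 CPM in untreated libraries. It was 31.8 and 27.4 CPM in LPS Fth1-low and 17.9, 31.9 and 48.2 CPM in LPS Fth1-high libraries. Both LPS groups lay above the untreated libraries, and their ranges overlapped each other. The difference was 2.37 ± 0.45 for LPS Fth1-low (adjusted p = 0.019) and 2.56 ± 0.40 for LPS Fth1-high against untreated cells (adjusted p = 0.0016). Between the LPS gates Tfec was not called (0.18 ± 0.39, adjusted p = 0.85), and the sign of that small difference turned without LPS Fth1-high replicate 3 (-0.22). The LPS Fth1-low call was lost without either untreated or either LPS Fth1-low library. The 31.8 CPM of the shallow library rest on 19 counts.

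Tfeb (chromosome 17, 47737030 to 47792419, plus strand), the factor most closely tied to lysosome formation and autophagy, went the other way. It was 138 and 135 CPM in untreated, 68.6 and 92.6 in LPS Fth1-low and 58.7, 52.1 and 73.1 in LPS Fth1-high libraries. The untreated libraries were the highest and the 2 LPS groups overlapped. LPS Fth1-high cells lay below untreated cells by -1.15 ± 0.21 (adjusted p = 0.0035), a call that held with each library left out in turn. The differences of -0.72 ± 0.24 between LPS Fth1-low and untreated cells (adjusted p = 0.21) and -0.43 ± 0.22 between the LPS gates (adjusted p = 0.31) were not called. Tfe3, a factor that shares targets with TFEB, stayed between 122 and 141 CPM in all 7 libraries.

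Set on a common scale, as CPM per kilobase of exon, Tfeb made up 58.2% and 55.7% of the MiT sum in untreated libraries. Its share was 33.2% and 39.0% in LPS Fth1-low and 24.0%, 19.9% and 23.6% in LPS Fth1-high libraries. Mitf made up 5.84% and 7.45%, then 12.6% and 17.8%, then 36.7%, 35.0% and 36.0%. Thus Tfeb had the highest level per kilobase of the 4 in untreated cells, and Mitf had it in LPS Fth1-high cells. The summed level was 41.9 and 42.6 CPM per kilobase in untreated, 36.5 and 41.8 in LPS Fth1-low and 43.2, 46.3 and 54.5 in LPS Fth1-high libraries. The length used is the union of all annotated exons, so a factor with many alternative exons is set too low, and isoforms of Mitf are not told apart in these counts. Gm15531 overlaps Mitf on the opposite strand.

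**Figure D2:**
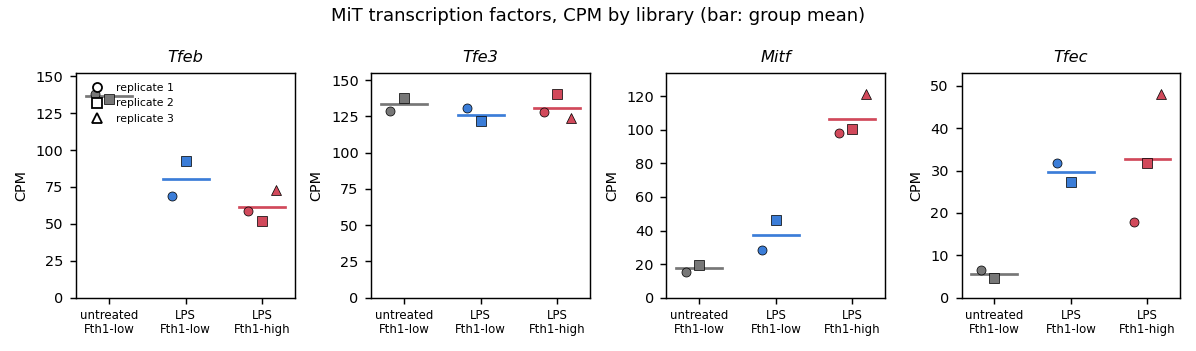
CPM of Tfeb, Tfe3, Mitf and Tfec in each of the 7 libraries (points, shape by replicate number) with group means (bars), on axes that start at 0. Mitf rises from 15.2 to 19.7 CPM in untreated to 98.2 to 122 CPM in LPS Fth1-high libraries, Tfeb falls from 135 to 138 to between 52.1 and 73.1 CPM, and Tfe3 is level.

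The promoters of the members were searched for the E-box that MiT factors are known to bind. The sequences are shown because they hold the letters of that E-box. The RefSeq promoter table (GRCm38.p6) gave windows of 300 bases, 250 before to 50 after a start site, for 28 of the 33 members. The 5 with no entry were Asah1, Atp6v0d2, Atp6v1b2, Atp6v1c1 and Atp6v1h. The letters TCACGTG, read on both strands, occurred in the windows of 8 of 28 members (28.6%). Of the tested genes with a window, 6.83% held them, and 4.29% of all genes in the promoter table did. The shorter CACGTG, which each TCACGTG contains, was found in the same 8 members and in 11.5% of tested genes. Windows that hold the motif before the RefSeq start site are shown for the 6 members below, 5′ to 3′ on the gene's strand, with the matches on either strand in capitals.
Lamp1, chr8:13159084-13159160, plus strand: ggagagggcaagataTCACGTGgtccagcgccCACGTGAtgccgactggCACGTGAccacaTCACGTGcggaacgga
Mcoln1 first window, chr8:3500436-3500464, plus strand: ggtcgcgcttgTCACGTGttcagttcagg
Mcoln1 second window, chr8:3500462-3500491, plus strand: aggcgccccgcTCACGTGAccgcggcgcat
Gaa, chr11:119267807-119267843, plus strand: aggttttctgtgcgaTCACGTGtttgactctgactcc
Glb1, chr9:114401014-114401050, plus strand: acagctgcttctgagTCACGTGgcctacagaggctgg
Atp6v0b, chr4:117887334-117887381, minus strand: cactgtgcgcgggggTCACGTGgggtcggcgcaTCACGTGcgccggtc
Atp6v1a, chr16:44139369-44139406, minus strand: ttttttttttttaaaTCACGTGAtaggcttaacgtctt

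Lamp1 thus carries 4 matches within the 77 bases before its RefSeq start, Atp6v0b has 2, and Mcoln1 and Atp6v1a each have a place where matches on the 2 strands overlap as TCACGTGA. The remaining 2 of the 8, Atp6v0d1 and Atp6v0e, have theirs at or just after the start. GENCODE places the start of some genes elsewhere: the second Mcoln1 window lies wholly in a GENCODE exon, 8 bases of the first do, and the Atp6v1a window lies inside the GENCODE gene but in 0 exon bases. A link between the letters and the changes was not tested. After LPS, 2 of the 8 members with a match were higher in Fth1-high cells (Gaa and Mcoln1), as were 3 of the 20 without (Grn, Mitf and Tpp1). Atp6v1c1, also called, had no window, and 3.68% of all tested genes were called higher there. The median difference was 0.75 in the 8 and 0.60 in the 20. Lamp1 and Atp6v0b were not called by edgeR in any comparison. A match describes the sequence only, and binding was not measured.

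Among soluble enzymes and cofactors, 3 of 11 were called higher between the LPS gates and 4 of 11 were called higher against untreated cells. These are 27.3% and 36.4%, beside 3.68% and 12.4% of all tested genes. Tpp1 (chromosome 7, 105744811 to 105752235, minus strand), a tripeptidyl peptidase, was 68.5 and 71.2 CPM in untreated and 82.0 and 96.0 in LPS Fth1-low libraries. It was 230.1, 244 and 265 CPM in LPS Fth1-high libraries, above every other library. Fth1-high exceeded Fth1-low after LPS by 1.45 ± 0.20 (adjusted p = 0.0024) and untreated cells by 1.82 ± 0.19 (adjusted p = 1.5e-04). Gaa (chromosome 11, 119267887 to 119285454, plus strand), the acid glucosidase that digests glycogen, was 49.2 and 51.2, then 33.5 and 56.6, then 138, 142 and 171 CPM. Its differences were 1.64 ± 0.25 between the LPS gates (adjusted p = 0.0040) and 1.58 ± 0.24 against untreated cells (adjusted p = 0.0011). The Fth1-low groups overlapped for Gaa (-0.06 ± 0.26, adjusted p = 0.98). All 4 of these calls held with each library left out in turn.

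Grn (chromosome 11, 102430315 to 102437048, plus strand) encodes progranulin, a secreted and lysosomal protein whose fragments assist other lysosomal enzymes. It was 756 and 791 CPM in untreated, 655 and 1093 in LPS Fth1-low and 1926, 2381 and 2414 in LPS Fth1-high libraries. Fth1-high cells exceeded Fth1-low cells after LPS by 1.35 ± 0.28 (adjusted p = 0.016). Grn was no longer called between the gates when the shallow library (1.01, adjusted p = 0.063) or LPS Fth1-high replicate 2 or 3 was left out. The difference of 1.53 ± 0.28 from untreated cells (adjusted p = 0.0033) held in every such fit. Fam171a2 overlaps Grn on the opposite strand. Neu1, a sialidase, was 105 and 87.6, then 93.8 and 105.8, then 139, 162 and 178 CPM. It was called only against untreated cells (0.73 ± 0.20, adjusted p = 0.026), and that call was lost without either untreated library or LPS Fth1-high replicate 2 or 3.

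The other enzymes were not called by edgeR in any comparison. Psap, the precursor of the saposins that present lipids to hydrolases, had the highest level of all members on the per-kilobase scale in each group. It was 11284 and 10899 CPM in untreated, 5429 and 8276 in LPS Fth1-low and 9792, 8982 and 12713 in LPS Fth1-high libraries. Both LPS Fth1-low libraries were the lowest, and the untreated and Fth1-high ranges overlapped. Hexa, a subunit of the ganglioside-degrading hexosaminidase, was 338 and 281, then 174 and 346, then 414, 425 and 742 CPM. Its 3 Fth1-high libraries lay above all others, with replicate 3 well above its partners, and DESeq2, unlike edgeR, called Hexa higher between the LPS gates. Glb1, the lysosomal galactosidase, was 44.0 and 40.2, then 15.1 and 48.9, then 60.1, 69.6 and 76.8 CPM, and its shallow library rests on 9 counts. Manba, a mannosidase, had the same order, at 62.6 and 56.1, then 33.5 and 65.9, then 75.2, 88.0 and 92.7 CPM. Man2b1, another mannosidase, ranged from 527 to 734 CPM with its highest values in untreated cells, and Gusb and Asah1 had overlapping LPS groups.

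Of the 5 membrane proteins, Mcoln1 (chromosome 8, 3500457 to 3515232, plus strand) was called higher in Fth1-high cells in both comparisons. This 1 of 5 is 20%, beside 3.68% of all tested genes between the LPS gates and 12.4% against untreated cells. Mcoln1 encodes a lysosomal cation channel that releases calcium and also passes iron. It was 33.3 and 34.8 CPM in untreated, 23.4 and 28.03 in LPS Fth1-low and 58.7, 59.7 and 62.5 in LPS Fth1-high libraries. The LPS Fth1-low libraries were the lowest and the groups did not overlap. The difference between the LPS gates was 1.18 ± 0.19 (adjusted p = 0.0060), and 1.08 without LPS Fth1-low replicate 1 (adjusted p = 0.019), with the call held in all 7 fits that left out a library. Against untreated cells it was 0.83 ± 0.17 (adjusted p = 0.0071), a call lost without either untreated library.

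Laptm5 (chromosome 4, 130913125 to 130936141, plus strand), a leukocyte lysosomal protein that promotes the breakdown of receptors, moved the opposite way. It was 2302 and 2360 CPM in untreated, 1456 and 1808 in LPS Fth1-low and 1197, 1274 and 1214 in LPS Fth1-high libraries. Each group lay below the one before without overlap. Fth1-high cells differed from untreated cells by -0.92 ± 0.21 (adjusted p = 0.011), which was not called without either untreated library or LPS Fth1-high replicate 3. The steps of -0.51 ± 0.23 from untreated to LPS Fth1-low (adjusted p = 0.39) and -0.41 ± 0.21 between the LPS gates (adjusted p = 0.31) were not called.

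Lamp1 and Lamp2, the main glycoproteins of the lysosomal membrane, were not called in any comparison by edgeR, whereas DESeq2 called Lamp1 higher between the LPS gates. Lamp1 was 1357 and 1118, then 564 and 1258, then 1356, 1701 and 1934 CPM. Lamp2 was 455 and 499, then 368 and 690, then 600.3, 639.9 and 608 CPM, so that LPS Fth1-low replicate 2 was the highest library of all. Scarb2, the receptor that brings glucocerebrosidase to lysosomes, was 179.5 and 154, then 112 and 185, then 232, 288 and 275 CPM. All 3 Fth1-high libraries were above the rest. Scarb2 was not called by edgeR, and DESeq2 called it higher between the LPS gates and against untreated cells.

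**Figure D3:**
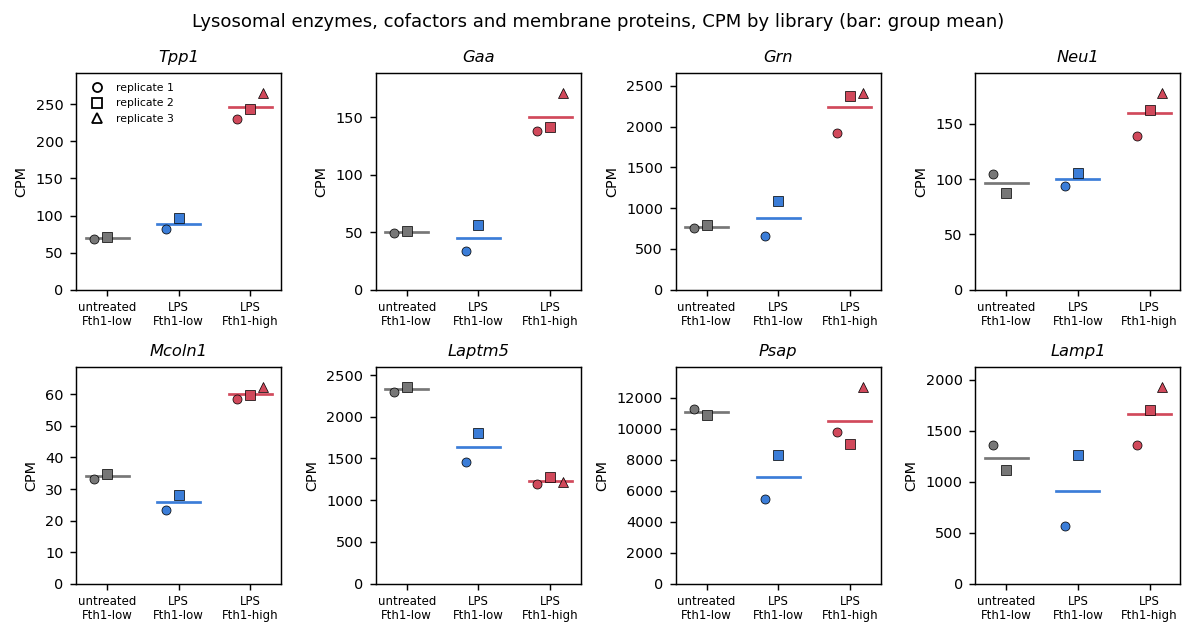
CPM of Tpp1, Gaa, Grn, Neu1, Mcoln1, Laptm5, Psap and Lamp1 in each library (points, shape by replicate number) with group means (bars), on axes that start at 0. The 3 LPS Fth1-high libraries are above all others for the first 5 genes and below all others for Laptm5, while for Psap and Lamp1 they overlap the untreated libraries.

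In the V0 sector of the V-ATPase 0 of 7 genes were called between the LPS gates. Of all tested genes, 3.68% were called higher and 4.57% lower there, so 0 of 7 is near that share. Against untreated cells 1 of 7, Atp6v0c, was called higher in Fth1-high cells, which is 14.3% beside the 12.4% of all tested genes. Atp6v0c (chromosome 17, 24163866 to 24169702, minus strand) encodes the proteolipid that forms the proton-carrying ring. It was 97.2 and 88.1 CPM in untreated, 146 and 195 in LPS Fth1-low and 188, 306 and 285 in LPS Fth1-high libraries. Both LPS groups lay above the untreated libraries and overlapped each other. The Fth1-high difference from untreated cells was 1.49 ± 0.26 (adjusted p = 0.0029), held with each library left out. For LPS Fth1-low cells it was 0.90 ± 0.28 (adjusted p = 0.16), not called.

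Other V0 genes stayed within narrower ranges. Atp6v0b, a second ring proteolipid, was between 176 and 283 CPM, and Atp6ap1, an accessory protein of the pump, between 283 and 419 CPM. Atp6v0e, a small V0 subunit, was between 111 and 179 CPM, and Atp6v0a1, a membrane subunit that directs the pump to its compartment, between 44.1 and 73.7 CPM. Each of these 4 genes had overlapping ranges in at least 2 of the 3 comparisons.

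The 2 isoforms of subunit d, which joins the sectors, differed in pattern. Atp6v0d1, the widely expressed isoform, was between 146 and 220 CPM in all libraries. Atp6v0d2, the isoform known from osteoclasts and some macrophages, was 3.71 and 1.03 CPM in untreated and 3.35 and 2.57 in LPS Fth1-low libraries. It was 4.25, 8.94 and 22.9 CPM in LPS Fth1-high libraries. All 3 lay above the rest and replicate 3 stood far above its partners. The gene was not called by edgeR, and DESeq2 called it higher against untreated cells. Of the reads of both isoforms, Atp6v0d2 had 1.76% and 0.596% in untreated libraries (exact 95% binomial intervals 1.42% to 2.16% and 0.298% to 1.06%). It had 2.25% (0.273% to 7.88%) and 1.34% (0.997% to 1.76%) in LPS Fth1-low libraries. In LPS Fth1-high libraries it had 2.50% (1.93% to 3.18%), 3.92% (3.43% to 4.46%) and 9.45% (8.76% to 10.2%). These intervals cover counting error only, and the shares are not corrected for length. In that same replicate 3, Marco, a scavenger receptor of alveolar macrophages, was at 14.4 CPM against 3.72 and 6.95 in its partners. Ctsk, a cathepsin on the same marker list, was at 48.6 against 21.5 and 17.3 CPM. Siglecf, which defines alveolar macrophages, was at 2.72 CPM there against 1.06 and 0.732 CPM in its partners. Over all libraries it was between 0.732 and 5.02 CPM, the highest value resting on 3 counts in the shallow library. Among the 3 Fth1-high libraries, replicate 3 was the highest for every tested gene of that marker list except Chil3 (741 against 471 and 1877 CPM). Ear2, for example, was at 10.9 CPM against 4.45 and 4.39. Between groups most of the list went the other way: 10 of its 13 tested genes had a difference below 0 between Fth1-high and untreated cells. Ear2 and Chil3 were called lower between the LPS gates (-3.87 and -2.13). The part of such cells in the Atp6v0d2 level was not tested.

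In the V1 sector 1 of 6 genes, Atp6v1c1, was called higher between the LPS gates and 3 of 6 were higher in Fth1-high than in untreated cells. These are 16.7% and 50%, beside 3.68% and 12.4% of all tested genes. Atp6v1c1 (chromosome 15, 38661933 to 38692446, plus strand), which links the ATP-splitting head to the membrane sector when the pump assembles, was 63.9 and 56.7 CPM in untreated libraries. It was 41.9 and 84.8 CPM in LPS Fth1-low and 134, 155 and 194 CPM in LPS Fth1-high libraries. Fth1-high libraries were above all others. The difference between the LPS gates was 1.25 ± 0.30 (adjusted p = 0.032), and of the 7 fits that left out a library 2 kept the call, those lacking replicate 2 of LPS Fth1-low (1.95) or replicate 1 of LPS Fth1-high. Without LPS Fth1-low replicate 1 it was 0.90 (adjusted p = 0.11). Against untreated cells it was 1.42 ± 0.29 (adjusted p = 0.0062), lost without untreated replicate 2.

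Atp6v1a, the catalytic subunit, was 140 and 168, then 137 and 226, then 245, 334 and 294 CPM. Atp6v1d, part of the rotating stalk, was 65.4 and 52.0, then 45.2 and 101, then 95.7, 136 and 133 CPM. Against untreated cells they were higher by 0.92 ± 0.26 (adjusted p = 0.027) and 1.05 ± 0.31 (adjusted p = 0.035). Both calls were lost without either untreated library or LPS Fth1-high replicate 2 or 3. Atp6v1b2, the other head subunit, was not called, at 325 and 318, then 184 and 371, then 261, 331 and 318 CPM. Atp6v1e1 and Atp6v1h, a stalk subunit and a regulatory subunit, were between 107 and 287 CPM and between 40.2 and 102 CPM and were not called.

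**Figure D4:**
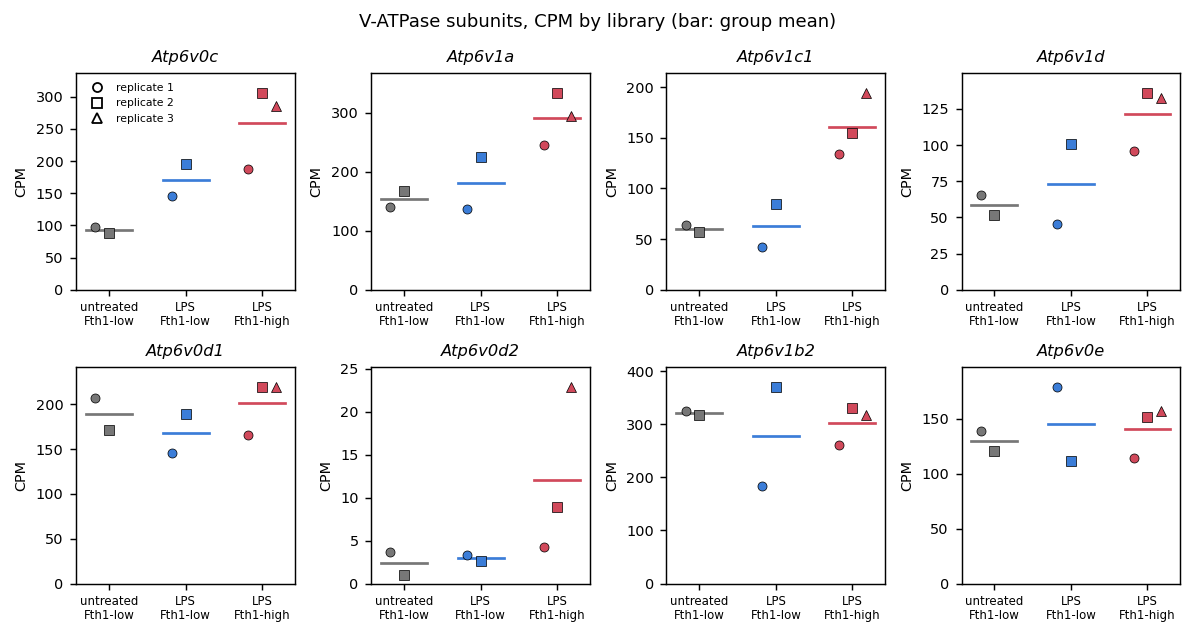
CPM of 8 V-ATPase genes in each library (points, shape by replicate number) with group means (bars), on axes that start at 0. Atp6v1a, Atp6v1c1 and Atp6v0d2 are highest in the 3 LPS Fth1-high libraries, Atp6v0c is lowest in the 2 untreated libraries, and Atp6v0d1, Atp6v1b2 and Atp6v0e show no separation of the groups.

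Added over all 33 members, transcript levels did not separate the Fth1-high from the untreated cells. The sums were 20686 and 19971 CPM in untreated, 11791 and 18080 in LPS Fth1-low and 19887, 21122 and 25415 in LPS Fth1-high libraries. Psap alone supplied 10899 or more CPM of the untreated sums. The LPS Fth1-low libraries held the 2 lowest sums, the lower one in the shallow library. The V1 sector summed to 847 and 809, then 556 and 1052, then 985, 1345 and 1320 CPM, and the MiT factors to 289 and 297, then 259 and 288, then 302, 325 and 367 CPM.

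**Figure D5:**
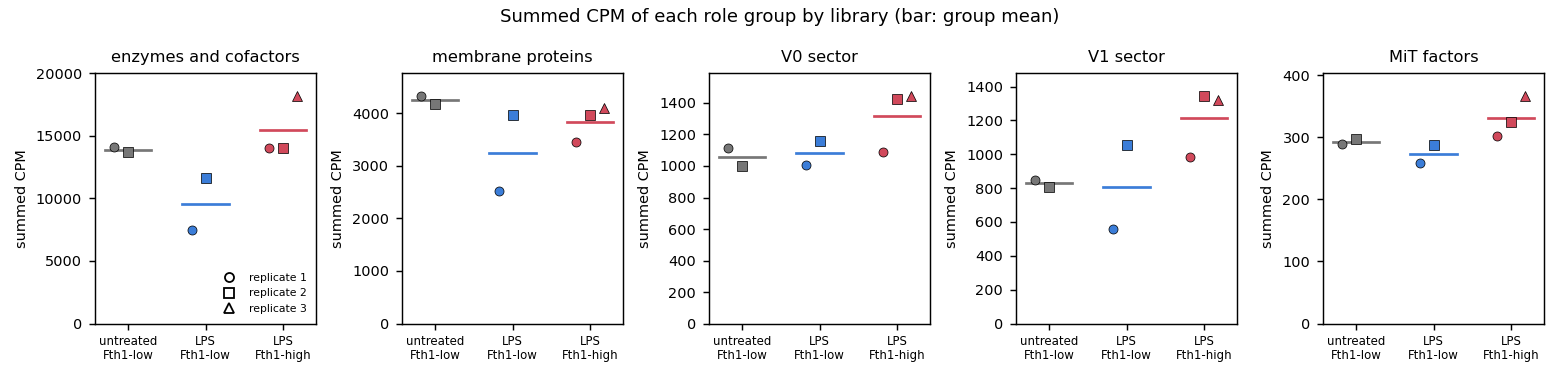
Summed CPM of the members of each role group in each library (points, shape by replicate number) with group means (bars), on axes that start at 0. The enzyme sum is led by Psap and is lowest in the 2 LPS Fth1-low libraries (7445 and 11613 CPM), and the V1 and MiT sums reach their highest values in LPS Fth1-high libraries.

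Other genes of the lysosome, listed by role, were read from the same fit. Between the LPS gates 3.68% of all tested genes were called higher and 4.57% lower. The share higher was 37.5% of other enzymes, 33.3% of other membrane proteins, 7.69% of other V-ATPase genes and 12.5% of sorting genes. It was 4.55% of mTORC1 and MiT control genes, 16.7% of autophagy genes and 35.7% of cathepsins. The share lower ran from 0% to 7.69% of a list. Of 32 other lysosomal enzymes and cofactors, 12 were called higher and 1 lower between the LPS gates, with a median of 0.91. Naglu, Idua and Gla, which digest heparan sulfate, glycosaminoglycans and globosides, rose by 1.95 ± 0.23, 1.25 ± 0.20 and 1.18 ± 0.20 (adjusted p = 0.0011, 0.0055 and 0.0072). Acp5, the tartrate-resistant acid phosphatase of osteoclasts and macrophages, was 605 ± 217 (SD, n = 3) against 69.3 ± 48.3 CPM (SD, n = 2) and rose by 3.00 ± 0.47 (adjusted p = 0.0053). The count was 5 higher without LPS Fth1-low replicate 1, 6 or 7 without untreated replicate 2 or LPS Fth1-high replicate 2 or 3, and 15 without LPS Fth1-low replicate 2.

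Of 21 other lysosome membrane proteins, 7 were higher and 1 lower, with a median of 0.39. Cd63, a tetraspanin, rose by 3.29 ± 0.52 (adjusted p = 0.0053). Without LPS Fth1-low replicate 2 the Cd63 difference was 3.04 and was not called (adjusted p = 0.12). Npc1, the cholesterol exporter, rose by 1.77 ± 0.29 (adjusted p = 0.0062). Clcn7, the chloride-proton exchanger of lysosomes, was 281 ± 17.2 CPM (SD, n = 2) in LPS Fth1-low and 612 ± 48.7 CPM (SD, n = 3) in Fth1-high cells, and rose by 1.13 ± 0.20 (adjusted p = 0.0087). Cd68, a macrophage glycoprotein, rose by 1.06 ± 0.21 (adjusted p = 0.014). The Cd68 difference was 0.98 without LPS Fth1-high replicate 2 and 1.01 without replicate 3, and was not called in either fit (adjusted p = 0.070 and 0.063). The count was 4 higher without LPS Fth1-low replicate 1, 3 without LPS Fth1-high replicate 2, and 3 to 5 higher over all fits that left out 1 library.

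Of 18 other V-ATPase subunits and assembly factors, 13 were tested, with 1 higher and 1 lower (3 and 0 without LPS Fth1-low replicate 2). Dmxl2, a scaffold that helps join the 2 sectors, was 306.8 ± 65.7 CPM (SD, n = 3) in Fth1-high against 81.1 ± 3.73 CPM (SD, n = 2) in Fth1-low cells and rose by 1.93 ± 0.25 (adjusted p = 0.0018). Rogdi, a binding partner of Dmxl2, was at 29.6 CPM in LPS Fth1-low and 16.7 CPM in Fth1-high cells on average. The Rogdi difference of -0.90 ± 0.21 (adjusted p = 0.028) was no longer called in 6 of 7 fits that left out a library, the exception being LPS Fth1-low replicate 1. Of 8 mannose 6-phosphate and sorting genes, 1 was higher and 0 lower (2 higher without LPS Fth1-low replicate 2). That gene was Igf2r, the receptor that carries new enzymes to lysosomes, at 318 ± 36.8 (SD, n = 3) against 47.0 ± 7.32 CPM (SD, n = 2) and 6.78 ± 1.35 CPM (SD, n = 2) in untreated cells. Its difference between the LPS gates was 2.72 ± 0.24 (adjusted p = 3.2e-04).

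Of 22 genes that act on MiT factors through mTORC1 at the lysosome or through calcineurin, 0 were lower between the LPS gates. The median was 0.14. The share higher was 4.55%, near the 3.68% of all tested genes, and came from 1 gene. That gene was Fnip2, a folliculin partner that controls the release of TFE3 and TFEB to the nucleus, with a difference of 1.82 ± 0.27 (adjusted p = 0.0035). Of 18 autophagy genes, 3 were higher and 0 lower, namely Gabarapl1 (1.05 ± 0.24, adjusted p = 0.026), Atg5 (0.89 ± 0.22, adjusted p = 0.034) and Sqstm1 (0.94 ± 0.24, adjusted p = 0.044). The autophagy count fell to 1 with the shallow library or untreated replicate 2 left out, and to 0 with LPS Fth1-high replicate 2 or 3 left out. Of 14 cathepsins, 5 were higher and 1 lower, led by Ctsd (3.08 ± 0.51, adjusted p = 0.0064), with Ctse the one that fell (-2.21 ± 0.27, adjusted p = 0.0014). The cathepsin count was 1 higher without the shallow library or LPS Fth1-high replicate 3, 2 without either untreated library or LPS Fth1-high replicate 2, and 7 without LPS Fth1-low replicate 2, where Ctse was not called. Against untreated cells, the Fth1-high counts in the same order of lists were 14 higher and 4 lower, 8 and 2, 3 and 1, 3 and 1, 3 and 1, 4 and 1, and 7 and 2, where 12.4% of all tested genes were higher and 11.9% lower. The mTORC1 list (13.6% higher, 4.55% lower) was near that share of higher genes, and the autophagy list had 22.2% higher and 5.56% lower. Between the Fth1-low groups each list had at most 1 gene higher and 1 lower.

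Markers of macrophages and of other cells were read from the same fit. Between the LPS gates 3.68% of all tested genes were called higher and 4.57% lower. In Fth1-high against untreated cells the shares were 12.4% and 11.9%. A list of 12 interstitial macrophage markers summed to 109 to 131 CPM in untreated, 353 to 739 in LPS Fth1-low and 1787 to 2347 in LPS Fth1-high libraries, and 4 of 11 tested were called higher and 1 lower between the LPS gates. C1qa, a complement chain of macrophages, was 1.58 and 1.12, then 72.0 and 219, then 362, 614 and 737 CPM. Most of the Fth1-high sum was C1qa, C1qb, C1qc and Stab1. Against untreated cells, 6 of 11 tested were called higher in Fth1-high cells. The 3 called lower were Lyve1, Mrc1 and Cd163 (-3.54, -1.49 and -4.94). Lyve1 was also the gene called lower between the LPS gates (-2.03). Folr2 and Timd4, which define resident macrophages, were at or below 1.27 CPM throughout. The 14 alveolar macrophage markers summed to 1754 to 1970, 3332 to 5934 and 513 to 1912 CPM, most of it Chil3, with 1 of 13 tested higher and 2 lower between the LPS gates. The 11 neutrophil markers summed to 416 and 450 CPM in untreated, 656 and 706 in LPS Fth1-low and 394, 413 and 380 in LPS Fth1-high libraries. The largest part of each sum was Csf3r, at 272 to 497 CPM. Ltf, Ngp, Camp, Cxcr2 and Retnlg were at or below 4.94 CPM in every library. Between the LPS gates 2 of the 10 tested neutrophil markers were called lower and 0 higher, 9 of 10 lay below 0, and the median was -1.85. The 10 dendritic cell markers summed to 146 and 143, then 105 and 98.2, then 27.9, 25.4 and 30.4 CPM, with 3 called lower and 0 higher between the LPS gates (median -1.99). Flt3, a growth factor receptor of dendritic cells and progenitors, differed by -5.43 and Cd209a, a lectin of monocyte-derived dendritic cells, by -4.65. Ccr2, the chemokine receptor of classical monocytes, was 1390 and 1252, then 894 and 1545, then 360.5, 148 and 170 CPM. Ly6c2, on the same marker list, went the other way, at 562 and 765, then 1393 and 847, then 1981, 2980 and 1854 CPM. Of the 8 monocyte and macrophage markers on that list, 0 were called higher and 1 lower between the LPS gates, and 5 lay above 0. Against untreated cells 3 were called higher and 2 lower in Fth1-high cells. The 12 T, B and NK cell markers summed to 110 and 50.8, then 117 and 37.9, then 39.7, 9.88 and 29.3 CPM. All 12 lay below 0 between the LPS gates (median -1.36, 0 called) and against untreated cells (median -1.67, 2 called lower). These 2 are 16.7%, beside 11.9% of all tested genes. Epithelial markers reached 826 CPM in untreated replicate 1 and 5.87 to 138 elsewhere. The part of these cells in the lysosome results was not tested.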

How the data were processed

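Polyadenylated RNA (25 ng) of sorted lung cells was made into stranded libraries with 15 PCR cycles and sequenced as paired reads of 58 bp, per the labels. The deposited values are raw counts per gene. The submitters' processing notes name DRAGEN, DESeq2 and mm10, with no version given, and the annotation, counting strand and filters are not stated in the labels used here. The labels do not say whether replicates were separate mice, so p-values measure the spread between libraries, which may be technical. 0 sample columns were unused.

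The fit used edgeR 4.0.16 under R 4.3.3, with filterByExpr (13665 genes), TMM scaling, and 1 robust quasi-likelihood model of 3 groups on 7 libraries (residual df 4, two-sided tests). SE is the log2 difference over the square root of F. On simulated data, changes of log2 2 were recovered at 67%, 61% and 74% in the 3 comparisons in the order of the report, and changes of log2 1 at 25%, 19% and 25%. DESeq2 1.42.0 and limma 3.58.1 served as alternatives.

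The members and lists were chosen with earlier results of these data known. All members may be named; from each other list up to 4 called genes of smallest adjusted p between the LPS gates were named, plus gate genes and the most abundant or defining markers. Positions are GENCODE vM21 (GRCm38), where all 33 symbols matched; 10 members overlap a gene on the opposite strand and 4 on the same strand, among them Glb1. Exon-union lengths gave CPM per kilobase. Protein sequences were not used here. Gene counts under 3 in a library are near its floor, 5.02 CPM in the shallow one and 0.106 to 0.280 CPM elsewhere, for counting error only.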

Additional observations from a re-analysis of the deposited data

How the results depend on the processing

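The alternatives were RLE scaling, total counts, DESeq2's Wald test, limma-voom, no filter, at least 10 counts in every library, fits of only the groups compared, the replicate number as a block, ribosomal RNA and mitochondrial genes left out, libraries thinned to equal depth, and each library left out in turn. The same settings for the other lysosome lists were added after seeing the data. Of 21 called member differences under these settings (357 values), 312 kept direction and call, 45 lost the call and 0 reversed.

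Members called higher between the LPS gates numbered 6, but 5 in fits of only the groups compared, 8 with at least 10 counts in every library (Neu1 and Scarb2 added), 9 under DESeq2, 10 with libraries thinned to equal depth and 4 to 11 with each library left out. Between LPS Fth1-low and untreated cells the 2 calls became 1 under total counts, limma-voom and fits of only the groups compared, 0 when thinned, and 0 to 1 with each library left out. Against untreated cells the Fth1-high counts ran from 6 to 14 higher and 1 to 2 lower with each library left out. The share of all tested genes called under each setting is not given here, so these counts have no background beside them. The cause was not tested.

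The labels do not say whether same-numbered libraries share mice. Correlations of same-numbered deviations from the group mean ranged from -0.037 to 0.29, with 3 of 6 pairs above 0.1. In a group of 2 libraries the deviations mirror each other. The 2 pairs of untreated with LPS Fth1-low libraries thus give the same value by construction. These correlations cannot decide whether libraries were paired. The labels state no pairing, and the numbers were not used as pairs. With the replicate block the counts were again 6, 2, 11 and 2. LPS Fth1-high replicate 3 is the only library of that number. It therefore had a term of its own in that fit and did not enter the differences. Under the block Neu1 lost its call against untreated cells and Atp6v0d2 gained one, and the uncalled Tfec difference between the gates became -0.21.

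Other reversals also concerned differences that were not called. With each library left out, Tfec between the gates ran from -0.22 to 0.47. Between LPS Fth1-low and untreated cells Grn ran from -0.26 to 0.53, Neu1 from -0.058 to 0.19, Gaa from -0.60 to 0.20, Atp6v1a from -0.19 to 0.58, Atp6v1c1 from -0.55 to 0.52 and Atp6v1d from -0.40 to 0.81. Neu1 was -0.0041 under total counts and Gaa 0.084 under limma-voom. The shallow library limits low genes, where 3 counts equal 5.02 CPM.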
